A study of Anser cygnoides with 6 samples.

Results

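Hox genes and their TALE cofactors were examined in ovaries of the swan goose, Anser cygnoides. Genes were included by symbol, as a HOXA, HOXB, HOXC or HOXD gene or as a MEIS, PBX, PKNOX or TGIF gene, which gave 44 of 14696 genes: 34 Hox genes and 10 TALE genes. TGIF1 has its name from the deposited table, and the reference table gives that symbol to another identifier. The groups were 3 reproductive and 3 broody libraries, numbered as in the labels. Both groups were 40 weeks old and are labelled with the same daily programme, 11 h light to 13 h dark. The broody birds had also gone through forced moulting and short illumination. Stage, moulting and any difference in light therefore cannot be told apart. The labels name neither the part of the ovary nor separate birds, so the p-values speak to the spread between these 6 libraries, part or all of which may be technical.

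Hox genes encode homeodomain transcription factors. They lie side by side in clusters, and genes at the same place in different clusters form a numbered paralog group, with low numbers used toward the head of the embryo and high numbers toward the tail. TALE proteins are homeodomain proteins with a loop extension. PBX proteins bind DNA together with Hox proteins, MEIS and PKNOX proteins bind PBX and hold it in the nucleus, and TGIF proteins are repressors that recognise a site like that of MEIS. In the mammalian female tract, HOXA9, HOXA10, HOXA11 and HOXA13 mark successive parts from the oviduct to the vagina.

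Values are FPKM, a fragment count corrected for transcript length and for the total of the library, and the read depth behind them is unknown. The summed FPKM of a library was between 319866 and 346625. The ovary label was checked with marker genes, because the design text of the series says oviduct. The sum of 8 oocyte markers ranged over 168 to 739 FPKM among reproductive and 1343 to 1551 FPKM among broody libraries. For 7 granulosa markers these ranges were 114 to 221 and 365 to 458 FPKM, with INHA under 1 FPKM in every library. AMH alone had 53.4 to 64.5 FPKM in reproductive and 202 to 295 FPKM in broody libraries. FOXL2 was also higher in every broody library, CYP19A1 and FSHR overlapped, and INHBA and NR5A2 were lower in every broody library. Of the 16 listed oviduct symbols, 5 had values. The others were not found among the gene names, so their levels are unknown and their absence says nothing about oviduct. PAX2, a factor of the oviduct epithelium, stayed under 1 FPKM in all 6 libraries. FOXJ1, a factor of ciliated cells, had 16.3 to 20.3 FPKM in broody and 3.27 to 12.1 FPKM in reproductive libraries. MSX2 had 3.59 to 24.1 FPKM and 2.02 to 6.80 FPKM, and WNT7A had 0.666 to 1.99 FPKM over all 6 libraries. TF, the ovotransferrin of egg white, had 71.1 FPKM in reproductive 2 and 0.969 to 4.79 FPKM in the other 5 libraries.

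The level of Hox transcripts followed the paralog group. Paralog groups 4 to 9 held 86.9 to 94.1% of all Hox FPKM in each library. Of their 17 genes, 14 reached 1 FPKM in at least 3 libraries, the limit for testing. Of the 12 genes of groups 10 to 13, 11 stayed under 1 FPKM in every library, and HOXA10 was the other one. Of 5 genes in groups 1 to 3, 3 reached the limit, HOXA3 and HOXB3 among them. The HOXD cluster was near 0 throughout, with 6 of 6 genes at 0.321 FPKM or less. HOXD10, its highest gene by mean, had 0.0768, 0.198 and 0 FPKM in broody and 0.0779, 0.321 and 0.176 FPKM in reproductive libraries, with overlap. In all, 16 Hox genes stayed under 1 FPKM in every library and 18 were tested. HOXC4, the highest mean among those left out, lay between 0.156 and 0.619 FPKM. HOXB3, the lowest mean among those tested, lay between 0.925 and 2.39 FPKM.

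**Figure D1:**
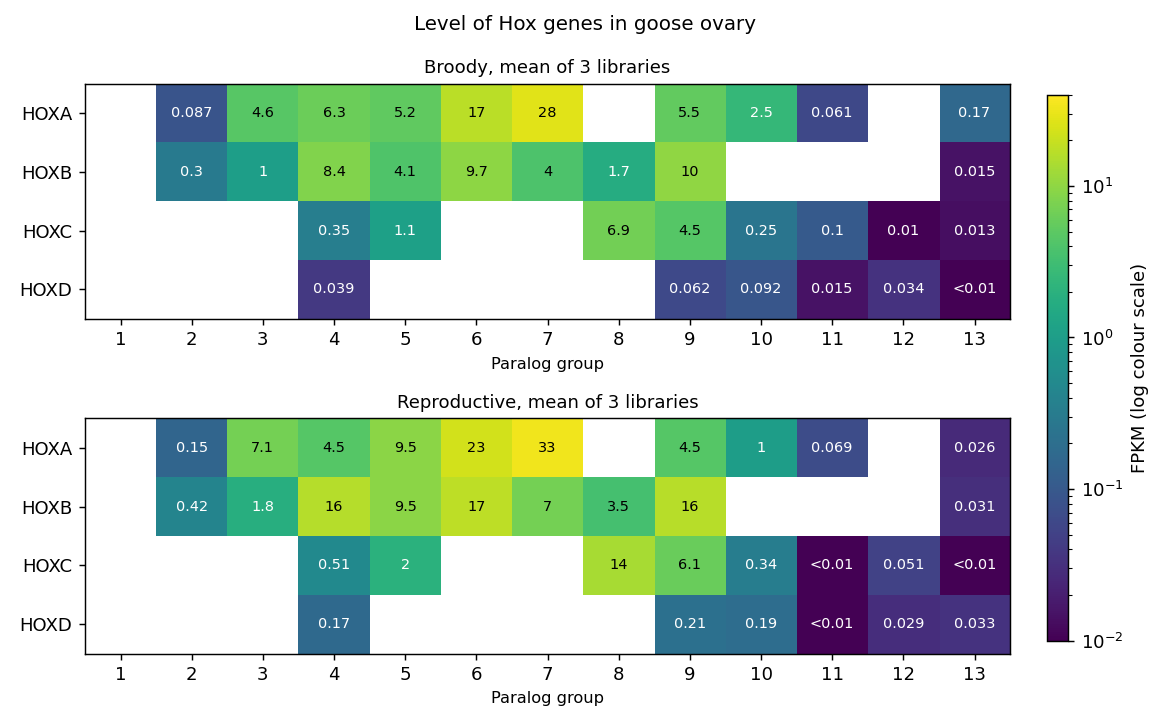
Mean FPKM of 33 Hox genes (n = 3 libraries per panel) by cluster (rows) and paralog group (columns), on a log colour scale, with white cells where no gene is shown. HOXA7 stands highest in both panels, and most genes of groups 10 to 13 and every HOXD gene stand under 1 FPKM.

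HOXA7 and HOXA6, neighbours in the middle of the HOXA cluster, were the most abundant Hox transcripts in both groups. HOXA7 had 30.6, 28.3 and 25.0 FPKM in broody 1 to 3 and 30.0, 40.7 and 28.1 FPKM in reproductive 1 to 3. The groups overlapped, and the difference of -0.22 ± 0.17 (SE) on the log2(FPKM + 1) scale, broody minus reproductive, did not pass (limma adjusted p = 0.332). HOXA6 had 18.1, 18.0 and 15.0 FPKM in broody and 21.5, 26.5 and 19.6 FPKM in reproductive libraries. Each broody value was below each reproductive value. The test was not passed (-0.38 ± 0.16, limma adjusted p = 0.0886), except under the scalings of libraries given below. Together these 2 genes made up 30.3 to 37.6% of the Hox FPKM of a library. Next in the reproductive group came HOXB6, HOXB9 and HOXB4, with means of 17.5 ± 5.77, 16.2 ± 6.19 and 15.7 ± 3.85 FPKM (SD, n = 3). These 3 neighbours in the order lay within each other's spread.

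HOXB4 to HOXB7, HOXA5, HOXC8, MEIS1 and MEIS2 were lower in broody ovaries. Of 28 members tested, 8 fell and 2 rose (limma, Benjamini-Hochberg adjusted p under 0.05). Over all 11377 genes tested the called share was 41.9%, with 29.9% higher and 12.0% lower. The members' called share was 35.7%, with 7.14% higher and 28.6% lower. The median difference was -0.42 for the tested members and 0.23 for all genes tested. Median-ratio scaling brought the latter to 0.00228, and 14 members were then lower and 0 higher, where 18.8% of all genes were lower and 16.7% higher. Upper-quartile scaling also gave 14 and 0, over 19.2% lower and 15.6% higher among all genes. Quantile normalization gave 10 lower and 1 higher, over 17.0% and 19.3%. HOXA6, not called without scaling, was lower under all 3 scalings (limma adjusted p = 0.0380, 0.0343 and 0.0422 in turn). HOXA3, HOXB3, HOXB8 and HOXC5 were lower under median-ratio and upper-quartile scaling (limma adjusted p = 0.0390 to 0.0496), but not with quantile normalization. The groups did not overlap for 18 of the 28, or 64.3%, against 59.5% of all genes tested. With broody below, the count was 16 of 28 (57.1%), against a background of 18.2%, and with broody above it was 2 of 28, against 41.3%. Below 0 without regard to the test lay 19 of 28 members (14 of 18 Hox and 5 of 10 TALE genes), against 35.6% of all genes.

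The calls depended on which library was left out. Without broody 1, and likewise without broody 2, 0 of 28 members passed by limma, with 9 at an unadjusted p under 0.05 in each case. Of all 11377 genes, 0 higher and 1 lower passed each time. An unadjusted limma p under 0.05 was reached by 4571 of them without broody 1 and 4686 without broody 2. Without broody 3, 6 members were lower (HOXA5, HOXB4, HOXB5, HOXB7, MEIS1 and MEIS2) and 1 was higher (TGIF1). Of all genes, 1079 were then lower and 1924 higher. Without reproductive 2, 4 members remained lower (HOXA5, HOXB5, MEIS1 and MEIS2) and 0 higher, where 1041 of all genes were lower and 2487 higher. Reproductive 2 had the highest FPKM of the 6 libraries for 18 of the 28 tested members. The same share over all genes was not counted.

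**Figure D2:**
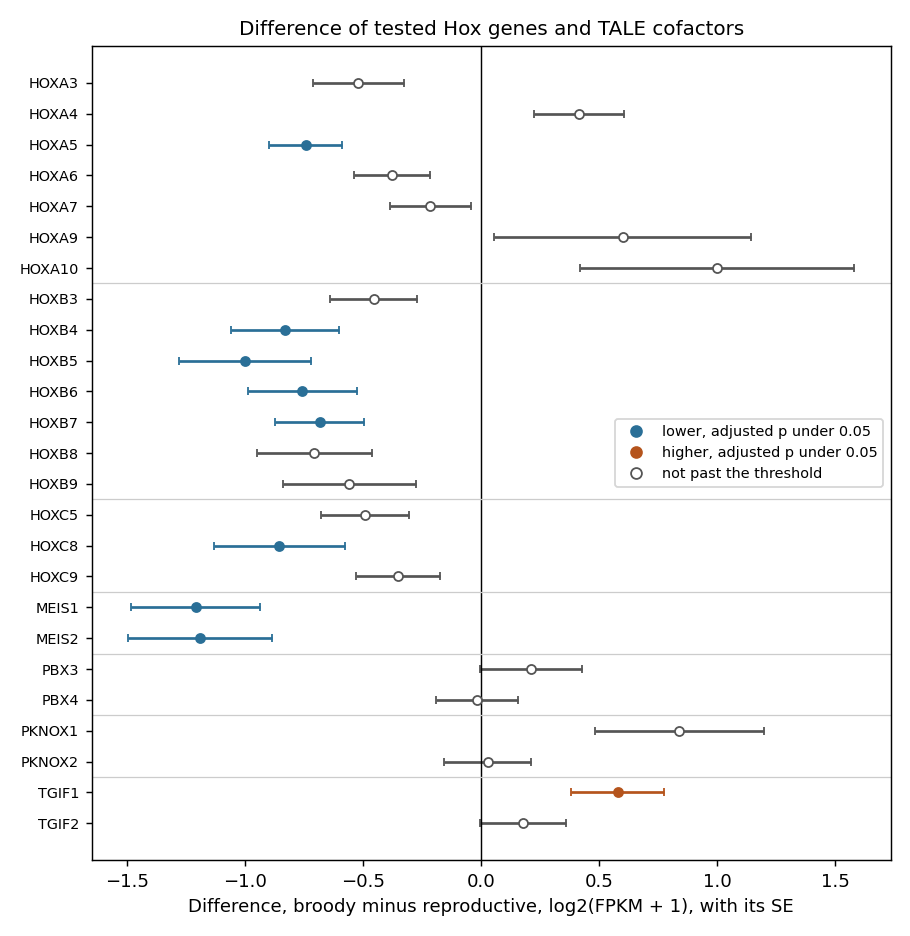
Difference between groups for 25 of the 28 tested members (points; broody minus reproductive, log2(FPKM + 1)) with its SE (bars), filled where the limma adjusted p was under 0.05. All 7 tested HOXB genes and all 3 tested HOXC genes lie below 0, and HOXA genes lie on both sides.

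In the HOXB cluster 4 of 7 tested genes fell and 0 rose, with differences from -0.46 to -1.001. Over all genes tested 12.0% fell and 29.9% rose. HOXB5 had 3.24, 3.90 and 5.07 FPKM in broody and 7.46, 14.3 and 6.82 FPKM in reproductive libraries. The broody values lay below all reproductive values, and the difference was -1.001 ± 0.28 (limma adjusted p = 0.0286). With the highest transcript of each gene HOXB5 did not pass (limma adjusted p = 0.0516). HOXB4, known in mouse and human for promoting the self-renewal of blood stem cells, had 7.38, 6.92 and 10.9 FPKM in broody and 11.96, 19.7 and 15.5 FPKM in reproductive libraries. The groups did not overlap and the fall was -0.83 ± 0.23 (limma adjusted p = 0.0278). This call ended without reproductive 2 (0.0584) and without reproductive 3 (0.0506).

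HOXB6 had 8.40, 9.40 and 11.2 FPKM in broody and 13.5, 24.1 and 14.8 FPKM in reproductive libraries, again with no overlap. It fell by 0.76 ± 0.23 (limma adjusted p = 0.0358), but not without broody 3 (0.0546) or reproductive 2 (0.0508). The call also ended with no filter (0.0506) and with the highest transcript of each gene (0.0589). HOXB7 had 3.51, 3.79 and 4.56 FPKM in broody and 7.22, 8.37 and 5.47 FPKM in reproductive libraries. Broody 3 came closest to reproductive 3, the fall was -0.68 ± 0.19 (limma adjusted p = 0.0264), and it was lost without reproductive 1 (0.0621) or reproductive 2 (0.0563).

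HOXB8 and HOXB3 also had broody values below every reproductive value but did not pass, with differences of -0.71 ± 0.24 and -0.46 ± 0.18 (limma adjusted p = 0.0503 and 0.0796). Both passed with median-ratio and upper-quartile scaling. HOXB9, at the tail end of the expressed stretch, had 10.3, 9.10 and 11.0 FPKM in broody and 18.2, 21.2 and 9.29 FPKM in reproductive libraries. Reproductive 3 lay among the broody values, and the difference was -0.56 ± 0.28 (limma adjusted p = 0.141). Without reproductive 3 it was -0.89 (limma adjusted p = 0.0112). With any other library left out HOXB9 did not pass (limma adjusted p = 0.188 to 0.343), nor did it in any of 11 other alternatives. HOXB2 and HOXB13, not tested, stayed at 0.609 FPKM or less.

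In the HOXC cluster 1 of 3 tested genes fell, against 12.0% of all genes tested. HOXC8, a gene of trunk level, had 6.35, 5.48 and 8.76 FPKM in broody and 9.78, 19.8 and 11.3 FPKM in reproductive libraries. The groups were apart by a small gap between broody 3 and reproductive 1, and the fall was -0.86 ± 0.28 (limma adjusted p = 0.0426). The call ended without broody 3 (0.0502), reproductive 2 (0.0736) or reproductive 3 (0.0533), with no filter (0.0628) and with the highest transcript of each gene (0.0706). HOXC9 had 4.65, 4.58 and 4.26 FPKM in broody and 5.95, 7.52 and 4.81 FPKM in reproductive libraries. Its groups did not overlap, nor did those of HOXC5, but neither passed (-0.35 ± 0.18 and -0.49 ± 0.18, limma adjusted p = 0.142 and 0.0647). With median-ratio and upper-quartile scaling HOXC5 passed and HOXC9 did not.

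The HOXA cluster held differences of both signs, but the positive ones of HOXA4, HOXA9 and HOXA10 did not pass. With median-ratio scaling HOXA3, HOXA5 and HOXA6 were lower (limma adjusted p = 0.0401, 0.0141 and 0.0380) and 0 members were higher. HOXA5, which in mouse is needed for lung and axial skeleton development, had 5.44, 4.69 and 5.62 FPKM in broody and 8.93, 10.9 and 8.63 FPKM in reproductive libraries. The gap between the groups was wider than the spread within either, and HOXA5 fell by 0.74 ± 0.15, with the lowest limma adjusted p of the members (0.0175). HOXA3 had 4.85, 4.13 and 4.80 FPKM against 6.41, 9.25 and 5.76 FPKM and did not pass (-0.52 ± 0.19, limma adjusted p = 0.0621). HOXA4 had 6.41, 6.93 and 5.57 FPKM in broody and 3.41, 4.60 and 5.63 FPKM in reproductive libraries. Its groups overlapped at broody 3 and reproductive 3 (0.41 ± 0.19, limma adjusted p = 0.114).

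HOXA9 and HOXA10 differed widely among reproductive libraries. HOXA9 had 5.55, 5.56 and 5.27 FPKM in broody and 9.77, 2.74 and 0.924 FPKM in reproductive libraries. The broody values were nearly equal, while reproductive 1 had 10.6 times the value of reproductive 3. HOXA10 had 1.92, 4.51 and 1.10 FPKM in broody and 3.02, 0.0168 and 0.0325 FPKM in reproductive libraries. Reproductive 1 lay among the broody values, and reproductive 2 and 3 were near 0. The SD of HOXA10 was 1.78 FPKM among broody and 1.73 FPKM among reproductive libraries. HOXC10, their relative in the HOXC cluster, stayed under 1 FPKM in every library and was not tested. It had 0.156, 0.499 and 0.0924 FPKM in broody and 0.877, 0.0366 and 0.107 FPKM in reproductive libraries, with overlap. HOXB9, HOXC9 and HOXD10 were instead highest in reproductive 2, and HOXD9, also under 1 FPKM, in reproductive 1. Neither tested gene passed, with differences of 0.60 ± 0.55 for HOXA9 and 1.00 ± 0.58 for HOXA10 (limma adjusted p = 0.390 and 0.193). Reproductive 1 had the highest reproductive value of both genes. Without that library both passed, at 1.27 and 1.66 (limma adjusted p = 0.0371 and 0.0384). HOXA10 then reached 1 FPKM in broody libraries only. Neither gene passed with any other library left out. HOXA9 was at 0.025 without reproductive 3 (limma adjusted p = 0.965), and HOXA10 at 0.66 without reproductive 2 (limma adjusted p = 0.423).

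**Figure D3:**
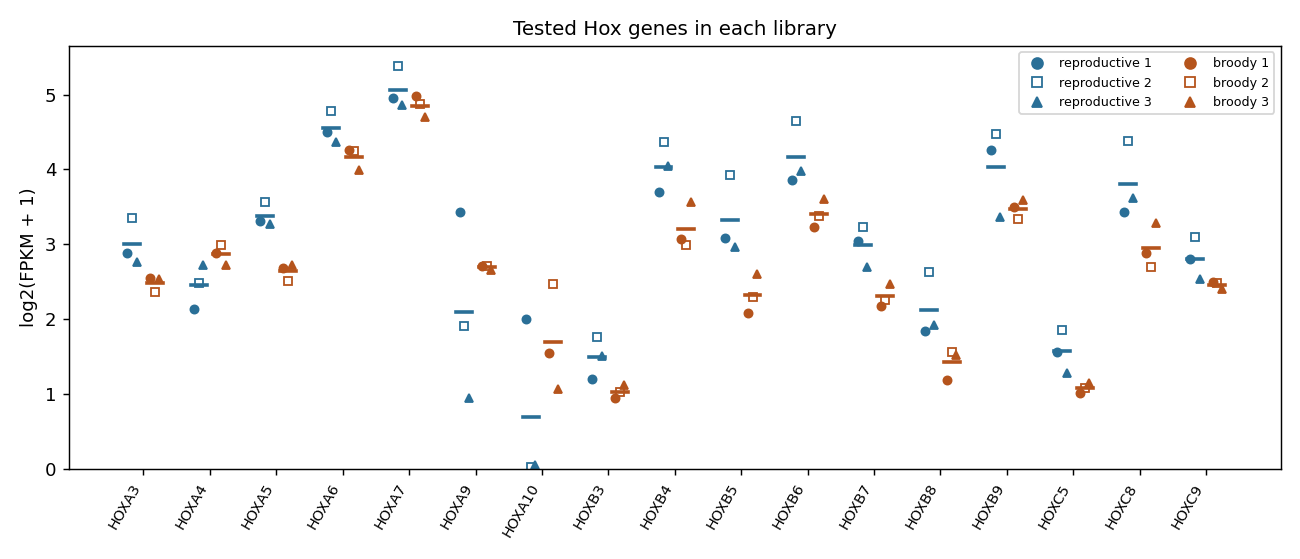
Level of 17 tested Hox genes in each library (y axis, log2(FPKM + 1)), with a marker for each library and a bar for the group mean (n = 3). HOXA9 and HOXA10 show the widest spread among reproductive libraries, and reproductive 2 is the highest point of all HOXB and HOXC genes.

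Summed over a cluster, HOXB had 35.3, 36.5 and 46.0 FPKM in broody and 62.7, 95.4 and 57.1 FPKM in reproductive libraries. The reproductive mean was 1.83 times the broody mean, with no overlap. HOXC summed to 12.6, 12.04 and 14.9 FPKM against 19.0, 30.5 and 18.4 FPKM, a ratio of 1.72. HOXA summed to 81.3, 76.5 and 67.2 FPKM against 86.1, 95.4 and 71.0 FPKM, so its groups overlapped, with a ratio of 1.12. No test was made on these sums. HOXD summed to less than 1 FPKM in each library, at 0.216 to 0.271 FPKM in broody and 0.507 to 0.802 FPKM in reproductive libraries.

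A ratio taken within a library is not touched by the scaling of that library. The HOXB sum was 0.435, 0.477 and 0.686 times the HOXA sum in broody 1 to 3 and 0.728, 1.00 and 0.804 times in reproductive 1 to 3. The groups were narrowly apart, between broody 3 and reproductive 1, and no test was made. The HOXC sum was 0.155 to 0.223 times the HOXA sum in broody and 0.221 to 0.319 times in reproductive libraries, with overlap. Among paralogs, HOXB4 was 1.15, 0.998 and 1.95 times HOXA4 in broody and 3.51, 4.27 and 2.76 times in reproductive libraries. HOXB7 was 0.115, 0.134 and 0.182 times HOXA7 against 0.241, 0.206 and 0.195 times. Both ratios were lower in every broody library. For HOXB3, HOXB5, HOXB6 and HOXB9 the ratio to the HOXA paralog overlapped between the groups. All 3 tested genes of group 5 had negative differences, with -1.001 for HOXB5, -0.74 for HOXA5 and -0.49 for HOXC5. In the reference assembly Taihu_goose_T2T_genome the span of HOXA3 covers HOXA4, HOXA5 and HOXA6, and that of HOXB3 covers HOXB4, HOXB5 and HOXB6, so reads in these stretches may have been divided between overlapping transcripts.

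Among the TALE genes, MEIS1 and MEIS2 had the largest falls of the members tested. MEIS1, in mammals a partner of Hox and PBX proteins in blood stem cells and limb buds, had 15.0, 18.8 and 25.8 FPKM in broody and 43.2, 66.1 and 34.6 FPKM in reproductive libraries. Even the highest broody value was below the lowest reproductive one, and MEIS1 fell by 1.21 ± 0.27 (limma adjusted p = 0.0186). MEIS2 had 5.27, 6.53 and 9.32 FPKM in broody and 11.5, 25.8 and 16.3 FPKM in reproductive libraries. It fell by 1.19 ± 0.30, again without overlap (limma adjusted p = 0.0229). Both calls were kept when broody 3 or any 1 reproductive library was left out. The ratio of MEIS1 to MEIS2 overlapped between the groups, at 2.76 to 2.89 (broody) and 2.12 to 3.75 (reproductive).

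PBX3 and PBX4 did not pass. PBX3 was the most abundant PBX gene, with 16.1, 19.8 and 16.3 FPKM in broody and 10.5, 18.1 and 17.1 FPKM in reproductive libraries. Its groups overlapped (0.21 ± 0.22, limma adjusted p = 0.448), as did those of PBX4, with 4.59, 6.56 and 4.86 FPKM against 5.50, 5.90 and 4.73 FPKM (-0.02 ± 0.17, limma adjusted p = 0.938). The sign for PBX3 turned under all 3 scalings.

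PKNOX1 and TGIF1 lay on the other side. PKNOX1, a broadly expressed PBX partner also called PREP1, had 29.0, 45.1 and 23.3 FPKM in broody and 16.3, 10.7 and 27.9 FPKM in reproductive libraries. Reproductive 3 lay among the broody values, and the difference was 0.84 ± 0.36 (limma adjusted p = 0.0915). Without reproductive 3 it was 1.18 (limma adjusted p = 0.0250). PKNOX1 did not pass with any other library left out, nor in any of 11 other alternatives. MEIS1 and PKNOX1 stood at a ratio of 1.24 to 6.17 in reproductive and 0.417 to 1.10 in broody libraries. The groups were narrowly apart, between broody 3 and reproductive 3, and no test was made on this ratio. MEIS1 had the lowest and PKNOX1 the highest difference of the TALE genes, so the ratio adds no evidence beyond those. PKNOX2 lay between 1.69 and 3.001 FPKM in all 6 libraries, with overlap (0.03 ± 0.18, negative under all 3 scalings; limma adjusted p = 0.910).

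TGIF1, a repressor that binds SMAD proteins and retinoid response sites, had 14.3, 15.4 and 10.3 FPKM in broody and 7.15, 8.50 and 9.95 FPKM in reproductive libraries. The groups were narrowly apart, and TGIF1 rose by 0.58 ± 0.20 (limma adjusted p = 0.0480). The call ended with all 3 scalings (0.145 to 0.171), with no filter (0.0667) and without reproductive 1 (0.123) or reproductive 2 (0.0816). With the highest transcript alone the difference was 0.29 ± 0.57 (limma adjusted p = 0.706). TGIF2 overlapped between the groups, at 4.87 ± 0.394 FPKM in broody and 4.25 ± 1.05 FPKM in reproductive libraries (SD, n = 3), and its sign turned under median-ratio and upper-quartile scaling.

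**Figure D4:**
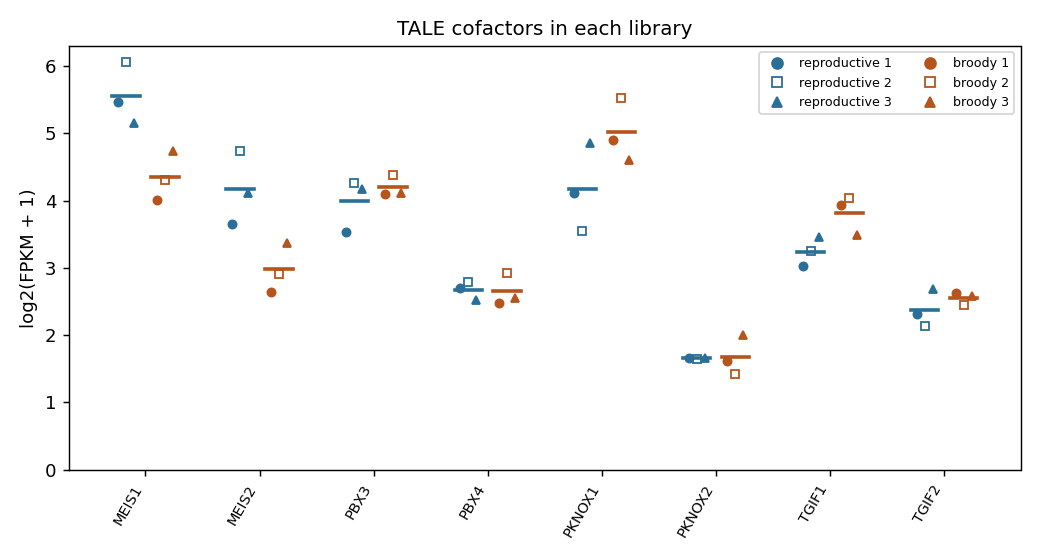
Level of 8 TALE genes in each library (y axis, log2(FPKM + 1)), with a marker for each library and a bar for the group mean (n = 3). MEIS1 and MEIS2 are lower in all broody libraries, TGIF1 is higher in all of them, and PBX3, PBX4, PKNOX1, PKNOX2 and TGIF2 overlap.

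Of the 44 members, 36 had 1 transcript in the deposited table. The split between transcripts varied across libraries for several members, among them HOXA3, HOXB3, HOXB8, MEIS1, TGIF1 and PKNOX1. A HOXB3 transcript took 0 to 69.6% of its gene. The leading transcript took 59.0 to 100% of HOXB8 and 34.0 to 53.5% of HOXA3. The 3 MEIS1 transcripts took 30.3 to 54.2%, 7.03 to 38.5% and 23.0 to 62.6% of the MEIS1 FPKM. Each had a lower mean in the broody group, and the most abundant one alone missed the threshold (-1.02, limma adjusted p = 0.0862). For TGIF1, 1 transcript had 10.03 FPKM in broody 2 and at most 0.0362 FPKM elsewhere, while another held 98.2% of TGIF1 in reproductive 2 and 29.6% in reproductive 1. The leading PKNOX1 transcript held 16.9% of the gene in reproductive 2 and 63.7% in broody 2. How reads were assigned between transcripts of different length can change the summed FPKM of a gene, and this was not tested.

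Markers of other cells moved with the same groups. For comparison, 12.0% of all genes tested fell and 29.9% rose, or 18.8% and 16.7% with median-ratio scaling. All 7 tested smooth muscle genes of 10 listed fell, and their broody sums (302 to 939 FPKM) lay far below the reproductive ones (3114 to 6938 FPKM). Stroma markers fell for 5 of 8 tested genes (8 of 8 with median-ratio scaling), with sums of 320 to 774 and 1864 to 2627 FPKM. Macrophage markers fell for 6 of 6, with sums of 216 to 375 and 510 to 961 FPKM. Oocyte markers rose for 8 of 8 (6 of 8 with median-ratio scaling). Of 6 endothelial markers 4 fell and 1, EMCN, rose, with sums of 232 to 293 FPKM in broody and 236 to 248 FPKM in reproductive libraries. EMCN alone had 174 to 227 FPKM in broody and 60.6 to 101 FPKM in reproductive libraries, so the sums do not show the 4 falls. Of 6 tested granulosa markers 2 rose and 2 fell, of 5 theca markers 1 fell, and of 4 oviduct markers FOXJ1 rose (0 of 4 with median-ratio scaling). No smooth muscle, stroma, macrophage or oocyte marker with values stayed under 1 FPKM in all libraries. Within the reproductive group, reproductive 2 had the highest sums of every Hox cluster, HOXA included, and of MEIS and PBX. It also had the highest smooth muscle (6938 FPKM), stroma (2627 FPKM) and macrophage (961 FPKM) sums and the lowest oocyte sum (168 FPKM). Within the broody group, broody 3 had the highest HOXB, HOXC and MEIS sums but the lowest HOXA sum (67.2 FPKM). It had the highest smooth muscle (939 FPKM), stroma (774 FPKM) and macrophage (375 FPKM) sums, but also the highest oocyte sum (1551 FPKM). The part of these cells in the Hox and MEIS differences was not tested, and in whole tissue fewer cells of a type and less RNA per cell cannot be told apart.

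**Figure D5:**
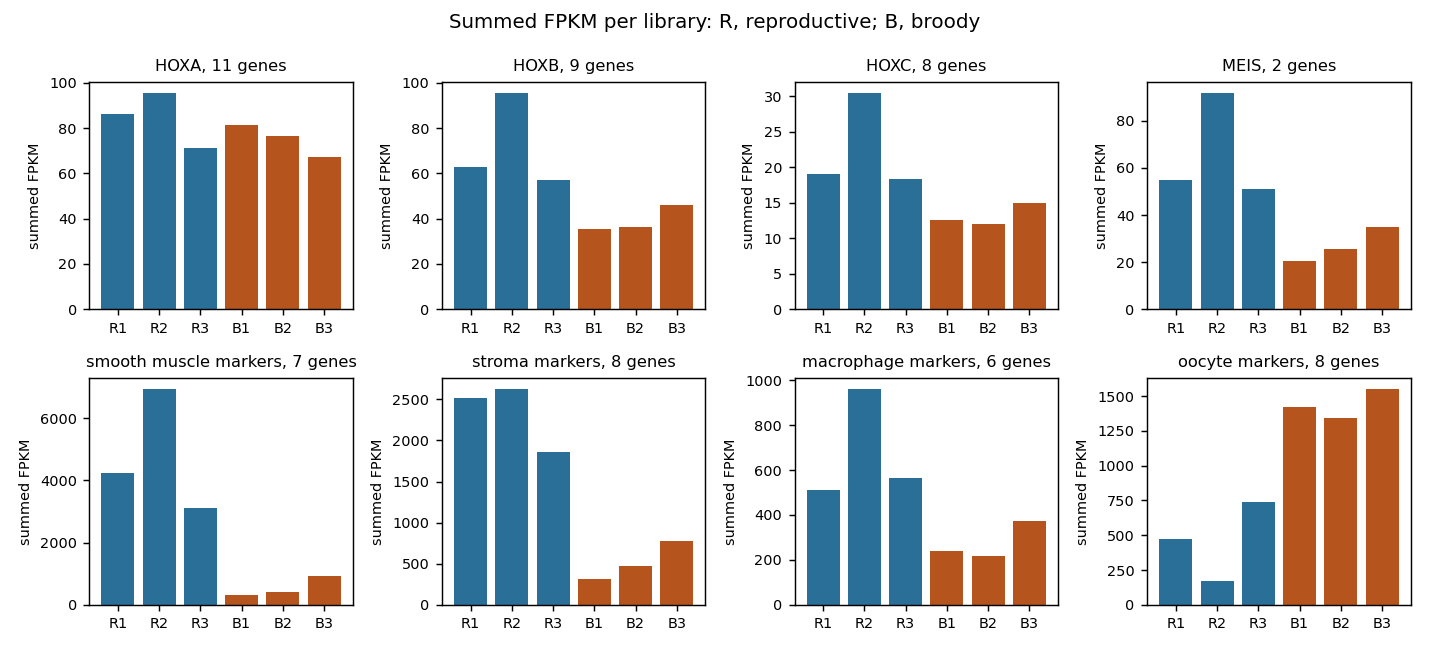
Summed FPKM per library (bars; 3 reproductive, then 3 broody) of the HOXA, HOXB and HOXC clusters, the MEIS genes and 4 marker lists, each on its own axis from 0. HOXA, HOXB, HOXC and MEIS and the smooth muscle, stroma and macrophage sums are all highest in reproductive 2, and the oocyte sum is lowest there.

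Genes that set Hox expression in embryos were counted as lists. For comparison with each list, 29.9% of all genes tested rose and 12.0% fell, or 16.7% and 18.8% with median-ratio scaling. Polycomb proteins keep Hox genes silent through a mark on histone H3. Of 18 Polycomb genes tested, 3 rose (16.7%) and 0 fell, with the same counts under median-ratio scaling. Their median without scaling was 0.23, the same as for all genes tested. The share that rose was smaller than among all genes without scaling, and the same as among all genes with median-ratio scaling. EZH2, the enzyme that writes the mark, rose from 8.53 ± 2.73 to 20.3 ± 3.34 FPKM (SD, n = 3; limma adjusted p = 0.0175). PHC2, a subunit of the complex that compacts chromatin, rose by 0.99, and PHF19, which brings the EZH2 complex to chromatin, by 0.80. Of 7 tested genes of the opposing Trithorax group and the demethylases of that mark, 2 rose and 0 fell, with a median of 0.02. These were ASH2L and DPY30, subunits of histone H3 lysine methyltransferases, with 0.55 and 0.56, and 0 of 7 passed with median-ratio scaling. RBBP5, a subunit of the same complexes, had 0.37 ± 0.15 (limma adjusted p = 0.0833).

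Retinoic acid turns on Hox genes of low number in the embryo. Of 9 tested genes of retinoic acid and other upstream signals, 3 rose and 3 fell (1 and 3 with median-ratio scaling), with a median of 0.11. ALDH1A3, which makes retinoic acid, fell from 74.2 ± 15.5 to 21.7 ± 4.10 FPKM (SD, n = 3; limma adjusted p = 0.0112). RARB, a retinoic acid receptor, fell by 1.10, and CYP26A1, which degrades retinoic acid, rose by 1.57. CDX1 and CDX4, factors upstream of trunk Hox genes, stayed under 1 FPKM in all 6 libraries.

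Of 5 tested homeobox genes outside the members, other TALE genes and genes linked to Hox clusters, 4 rose and 1 fell, with a median of 1.40 (3 and 1 with median-ratio scaling). MKX, a TALE factor of tendon, rose by 0.72 and GSX2, a ParaHox gene known from the forebrain, by 1.40. MEOX2, a factor of somites and vessels, fell from 12.0 ± 6.31 to 3.23 ± 1.37 FPKM (SD, n = 3; limma adjusted p = 0.0214). EVX1 and EVX2, which lie at the tail ends of the HOXA and HOXD clusters, stayed under 1 FPKM. Of 10 tested genes of the embryonic female duct and gonad, 3 rose and 1 fell (2 and 2 with median-ratio scaling), with a median of 0.48. EMX2, which HOXA10 represses in human endometrium, rose from 13.2 ± 3.93 to 26.1 ± 3.11 FPKM (SD, n = 3; limma adjusted p = 0.0184), WNT4 rose by 0.82 and NR2F2, a nuclear receptor of stromal cells, fell by 0.90.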

How the data were processed

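RNA-seq of 3 broody and 3 reproductive ovary libraries was used. The authors deposited FPKM for 33089 transcripts in each library. Per the submitters' processing notes the tools were HISAT2 and StringTie, with no version. The sources used here do not name the genome build, annotation or strand setting, and positions are left out for that reason. The smallest value above 0 was 1e-06 FPKM, so whole reads were not recovered and no count model was used. Transcripts were summed per gene identifier. Of 44 members, 8 were named in the deposited table and 36 from the reference table of Taihu_goose_T2T_genome, used for names and neighbours only. A gene was tested if at least 3 of the 6 libraries had 1 FPKM or more for it, on log2(FPKM + 1) with limma 3.58.1 in R 4.3.3 (lmFit, eBayes with a mean-variance trend), with two-sided p-values, Benjamini-Hochberg adjustment across the 11377 genes and a threshold of 0.05. Differences on this scale understate changes of genes at low FPKM. The fit was tested on simulated data. The 28 tested members include 0 that reached 1 FPKM in one group only. Of these, 3 enter the counts and sums but are not reported here. Members and lists were chosen with earlier results of these data known. Members that passed, had a mean of at least 5 FPKM or led their cluster or family are described by library, the rest by range. Some were added after their values were seen: HOXA9, HOXA10 and HOXC10, and among the listed genes TF, PAX2, INHA, FOXJ1, MSX2, WNT7A, CDX1, CDX4, EVX1 and EVX2. From each pathway list the 3 genes with the smallest p are named. Alternatives covered the pseudocount, filter, scaling, fit, replicate block, transcript choice, threshold and each library left out.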

Additional observations from a re-analysis of the deposited data

How the results depend on the processing

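The main counts were 2 members higher and 8 lower, and 3400 and 1366 of all genes. Members higher were 1 with a pseudocount of 0.1, the filter of 5 FPKM, quantile normalization or the replicate block, and 0 with no filter, median-ratio or upper-quartile scaling or the highest transcript of each gene. Members lower were 14 with median-ratio or upper-quartile scaling, and 4 with the highest transcript. At a threshold of 0.1, 3 members were higher and 14 lower, where 4408 of all genes were higher and 1861 lower. Leaving out 1 library gave 0 to 3 higher and 0 to 9 lower members. Of all genes, median-ratio scaling called 1897 higher and 2136 lower, and the upper quartile 1776 and 2189. Genes higher were 2198 with quantile normalization, 2225 with the replicate block (948 lower) and 2180 with the highest transcript. With 1 library left out they were 0 to 3765 higher and 1 to 1225 lower. The cause was not tested. Deviations of same-numbered libraries correlated at r = 0.110, -0.158 and -0.203, and those of differently numbered ones at -0.177 to 0.291. These values show no pairing by number, but with 3 libraries per group they cannot exclude it. With the replicate block 1 member was higher and 6 were lower: TGIF1, HOXB6, HOXB7 and HOXC8 no longer passed (limma adjusted p = 0.0942, 0.0508, 0.0586 and 0.0706) and HOXB8 did (0.0484).

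None of the 10 called members changed sign in these alternatives. Signs turned for 4 members that did not pass. PBX3 had -0.032 under median-ratio, -0.045 under upper-quartile and -0.0036 under quantile scaling, and -0.019 to 0.34 with 1 library left out. PBX4 had -0.15 to 0.066 with 1 library left out, positive without broody 1 (0.066), broody 3 (0.031) or reproductive 2 (0.040). PKNOX2 had -0.15, -0.16 and -0.090 under the same 3 scalings in turn, and -0.13 (without broody 3) to 0.16 with 1 library left out. TGIF2 had -0.030 under median-ratio and -0.041 under upper-quartile scaling. With median-ratio scaling the log2 ratio of summed FPKM, broody to reproductive, moved to -0.44 for HOXA, -1.67 for HOXD, -0.42 for PBX and 0.26 for TGIF. The read depth is unknown, so whether genes listed near 0 FPKM were transcribed cannot be told.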
